A study of Mus musculus with 30 samples.

Results

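The genes described here are Tnf, Il6, Il10, Il15 and Il15ra, which encode 4 secreted cytokines and the receptor chain that presents IL-15. They were taken by symbol from a table of read counts with 25611 gene rows, and all 5 were among the 14808 genes that passed the filter on low counts. RNA was sequenced from mouse bone marrow cultures grown for 6 to 7 days with FLT3L at 200 ng/ml, a growth factor that yields dendritic cells. The cells came from wild-type (WT) mice or from Rubcn knockout mice (KO), and all groups shared the FLT3L culture. Each genotype was left untreated, given OVA for 30 min or 4 h, or given apoptotic Jurkat cells for 30 min or 4 h. Jurkat is an established human T-cell leukaemia line. The 10 groups held 3 libraries each, 30 in all. The labels name neither the dose of OVA nor the strain, age or number of the mice, and they do not say whether the 3 libraries of a group came from separate mice, so the tests measure the spread between these libraries, which may be technical, and a difference between single mice or cultures cannot be told apart from the knockout.

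Rubcn encodes Rubicon, a protein needed for LC3-associated phagocytosis, in which part of the autophagy machinery acts on the single membrane around engulfed cargo. TNF, the product of Tnf, is an early inflammatory cytokine that acts through its receptors on NF-kappaB and on cell death pathways, and IL-6 drives acute-phase and T-cell responses through STAT3. IL-10 restrains inflammatory cytokine production, also through STAT3. IL-15 differs from these in that it is held on the producing cell by the IL-15 receptor alpha chain, encoded by Il15ra, and is presented from there to T cells and natural killer cells. Dendritic cells that sense microbial or cell-derived signals are a known source of all 4 cytokines.

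On the mm10 build the intervals in the counts table are as follows. Tnf (Entrez 21926) lies on the minus strand of chromosome 17, from 35199367 to 35202007. Il6 (Entrez 16193) lies on the plus strand of chromosome 5, from 30013114 to 30019975. Il10 (Entrez 16153) lies on the plus strand of chromosome 1, from 131019845 to 131024970. Il15 (Entrez 16168) lies on the minus strand of chromosome 8, from 82331624 to 82402586, and Il15ra (Entrez 16169) on the plus strand of chromosome 2, from 11705293 to 11733985. Of the other genes in the table, 0 overlapped any of these intervals. Counts were taken per whole gene, so exons, introns and untranslated regions are not separated.

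Promoter windows are shown because these genes rose together with apoptotic Jurkat cells at 4 h, as described below, while their early behaviour differed. RefSeq windows (build GRCm38.p6) that end at the start given in the counts table were found for 3 of the 5 genes, Tnf, Il6 and Il15ra. The 250 bases before each start are printed 5′ to 3′ on the gene's strand, and capitals mark matches to any of 5 motifs searched on both strands.
Tnf, chr17:35202008-35202257, minus strand: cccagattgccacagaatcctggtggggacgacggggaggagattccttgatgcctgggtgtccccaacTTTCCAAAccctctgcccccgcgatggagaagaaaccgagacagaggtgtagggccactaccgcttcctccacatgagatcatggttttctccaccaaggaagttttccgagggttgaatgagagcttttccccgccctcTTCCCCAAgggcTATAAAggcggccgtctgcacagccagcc
Il6, chr5:30012864-30013113, plus strand: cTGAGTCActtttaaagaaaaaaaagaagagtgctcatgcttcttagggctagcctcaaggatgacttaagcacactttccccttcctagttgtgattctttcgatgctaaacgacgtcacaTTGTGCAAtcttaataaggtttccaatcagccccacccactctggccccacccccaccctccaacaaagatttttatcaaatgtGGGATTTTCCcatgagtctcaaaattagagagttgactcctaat
Il15ra, chr2:11705043-11705292, plus strand: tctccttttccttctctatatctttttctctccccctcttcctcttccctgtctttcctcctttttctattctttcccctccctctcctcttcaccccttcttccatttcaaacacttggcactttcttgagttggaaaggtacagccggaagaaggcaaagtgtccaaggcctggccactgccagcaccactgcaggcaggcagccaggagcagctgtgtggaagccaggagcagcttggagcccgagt
The motifs were the NF-kappaB consensus, AP-1 (TGANTCA), C/EBP (TTNNGNAA), the interferon response element (GAAA, any 2 bases, GAAA) and the TATA box (TATAAA). Positions count back from the first transcribed base, so that -1 is the last base shown. In the Il6 window the NF-kappaB consensus matched from -44 to -35, C/EBP from -128 to -121 and AP-1 from -249 to -243. In the Tnf window C/EBP matched from -181 to -174 and from -41 to -34, both on the opposite strand, and the TATA box from -29 to -24. The Il15ra window held none of these letters. Among 32851 RefSeq windows of this length, 7.25% held the NF-kappaB consensus, 6.75% AP-1, 36.8% C/EBP, 2.98% the interferon response element and 12.4% the TATA box. The AP-1 letters read alike on both strands, and no 2 matches to different motifs overlapped in these windows. A match describes the letters and shows neither binding nor a cause.

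The depth of the libraries was 9.73 M to 51.6 M counts (median 44.9 M), and levels are given as CPM, counts per 1 M counts of a TMM-scaled library. A pair of libraries stood apart in depth or in Il6. KO OVA 30 min replicate 3 was the shallowest, with all others at 38.7 M or more, and KO Jurkat 30 min replicate 1 held far more Il6 than its group. Comparisons that include either library are given with and without it where the result rests on it. The spread of each gene is estimated from all 30 libraries, so both also enter the tests between other groups. KO Jurkat 4 h replicate 2 also differed from replicates 1 and 3 of its group in its counts across genes. The chi-square per degree of freedom was 128.8 and 133.8, against at most 16.65 for other pairs of libraries within a group. The calls of Il10, Il15 and Il15ra for KO against WT at Jurkat 4 h held without that library. In every condition the KO libraries held less Rubcn than the WT libraries without overlap, at 66.2 to 75.8 CPM against 79.5 to 104.6 CPM in the first 4 conditions and 44.4 to 50.5 against 56.1 to 62.3 CPM after Jurkat cells for 4 h. The dendritic cell markers Flt3, Zbtb46, Itgax, Cd74 and H2-Ab1 were detected in every group, and their summed level was 13638 to 16500.4 CPM outside the 4 h Jurkat groups and 24601 to 27335 CPM within them. Summed plasmacytoid dendritic cell markers were lower in KO than in WT without overlap in each condition, and basophil or mast cell and stromal markers were higher in KO. For the 8 plasmacytoid markers the ranges outside the 4 h Jurkat groups were 2129 to 2700.5 CPM in KO and 2756 to 2969.7 CPM in WT. They were 57.6 to 89.3 and 21.1 to 35.6 CPM for the 7 basophil or mast cell markers, and 701 to 1003 and 493 to 686 CPM for the 7 stromal markers. Monocyte or macrophage markers (8) were lower in KO without overlap at OVA 30 min (1593 to 1728 against 1852 to 2099.9 CPM), OVA 4 h (1849 to 1871 against 1952 to 2146) and Jurkat 30 min (1803 to 1841 against 1920.4 to 2132), and overlapped in the other 2 conditions. Neutrophil markers (6) were lower in KO in the 4 treated conditions (at Jurkat 4 h 71.6 to 73.7 against 91.6 to 98.6 CPM). Markers of conventional dendritic cells of type 1 (6) were lower in KO at OVA 4 h (441 to 462 against 479.9 to 511 CPM) and Jurkat 4 h (419.7 to 461 against 507 to 542). Those of type 2 (6) were higher in KO except at Jurkat 30 min, where they overlapped, and stood at 696 to 744 against 624 to 648 CPM at Jurkat 4 h. The B-cell sums were 17.02 CPM or less and higher in KO except at Jurkat 30 min, and the dendritic cell sums were higher in KO at 30 min of OVA and of Jurkat cells. The 14 T-lineage markers summed to 64.5 to 83.7 CPM without Jurkat cells. With Jurkat cells they summed to 113 to 117 CPM in WT and 94.6 to 103 CPM in KO at 30 min, and to 150.2 to 184 and 129.6 to 146 CPM at 4 h. No marker of these lists stood at 0 counts in any group. A sum follows its most abundant genes, so it does not show that each marker of a list moved the same way. The part of these shifts in the results below was not tested, and in bulk cultures fewer cells of a type and less RNA per cell cannot be told apart.

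Apoptotic Jurkat cells at 4 h gave the highest level of all 5 genes, in WT and in KO. To compare levels between genes, CPM was divided by the length of the joined exons in kilobases. In WT at 4 h of Jurkat cells Tnf stood at 876 ± 26.5 CPM per kb (SD, n = 3), Il6 at 58.6 ± 7.35, Il15 at 45.0 ± 6.49, Il15ra at 15.5 ± 1.82 and Il10 at 7.06 ± 0.855 CPM per kb. In untreated WT cells the order was Tnf at 6.39 ± 0.568, Il15 at 3.50 ± 0.0293, Il15ra at 2.36 ± 0.0862, Il10 at 0.205 ± 0.0894 and Il6 at 0.1004 ± 0.0216 CPM per kb. Tnf, Il15 and Il15ra were thus present before treatment, while Il6 and Il10 were low, with 9 to 30 and 5 to 17 counts per untreated library.

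**Figure D1:**
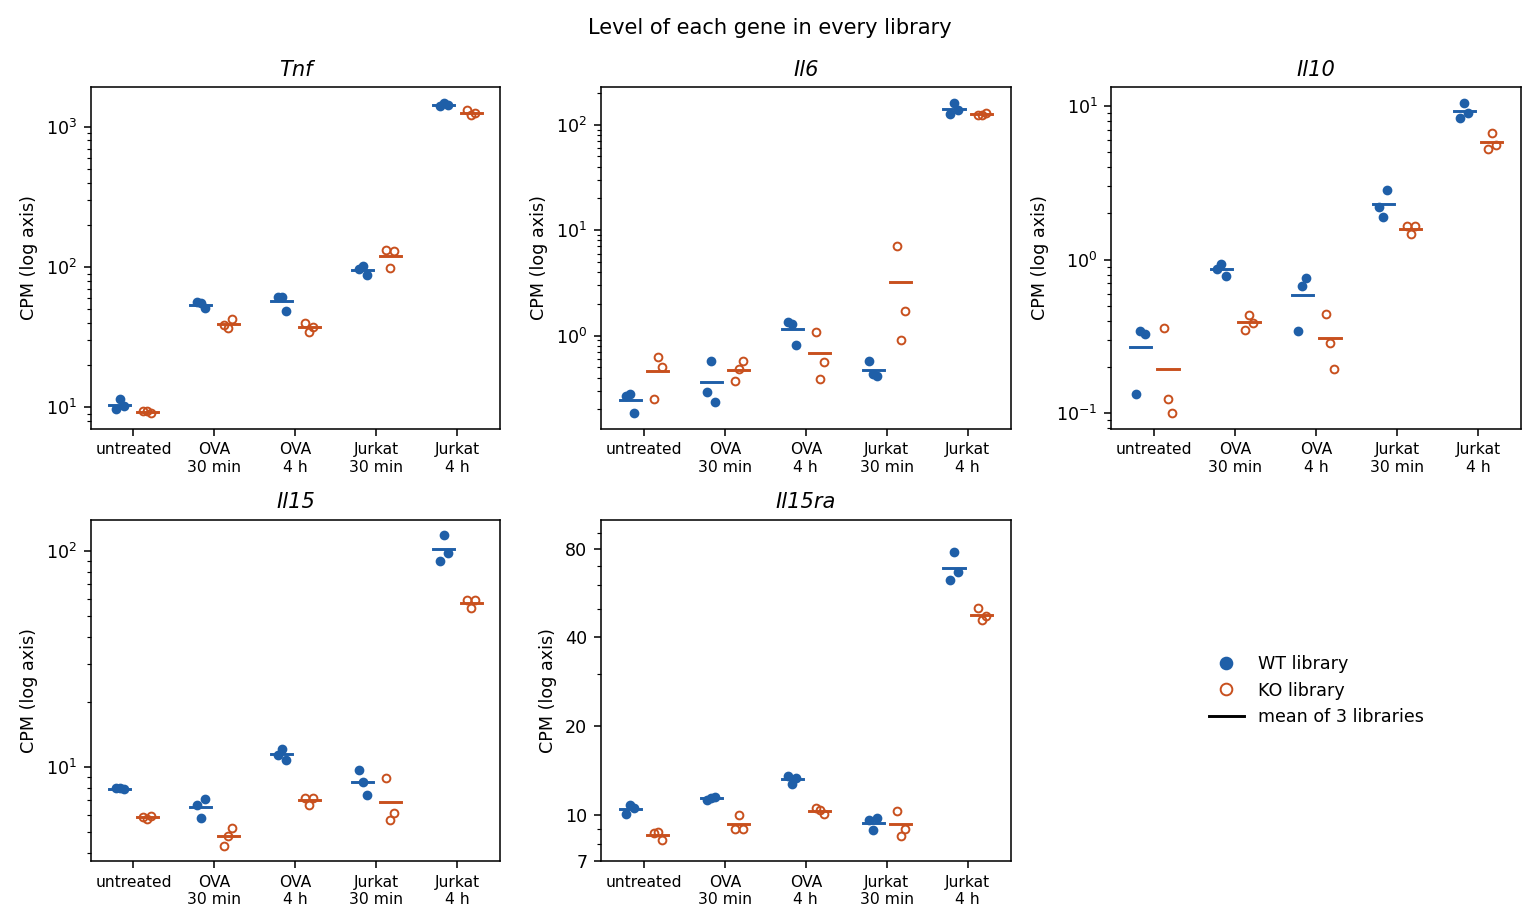
CPM of each gene in every library on a log axis, by condition and genotype, with a line at the mean of 3 libraries. All 5 genes are highest after Jurkat cells for 4 h, where Tnf, Il10, Il15 and Il15ra of the KO libraries lie below all WT libraries, and 1 KO library at Jurkat 30 min stands out for Il6.

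Treatment was compared with untreated cells of the same genotype by edgeR's quasi-likelihood F test, and a call means an FDR (p adjusted by Benjamini-Hochberg across the 14808 genes) under 0.05. Fold changes are on the log2 scale with a standard error (SE), and 95% intervals are not adjusted for the number of genes. The 4 comparisons of a genotype share its untreated libraries. The labels give no time or mock handling for the untreated libraries. An effect of time or handling therefore cannot be told apart from that of the stimulus in these comparisons. In WT, OVA called 2 of the 5 genes at 30 min, where 10.7% of all genes were called and 5.51% rose, and all 5 at 4 h, where 23.5% were called and 11.9% rose. Jurkat cells called 2 of 5 at 30 min (28.7% of all genes called, 14.2% up) and 5 of 5 at 4 h (79.5% called, 38.9% up). In KO the calls numbered 1 of 5 (3.77% of all genes called, 1.88% up) and 2 of 5 (11.6% called, 5.94% up) for OVA at 30 min and 4 h. For Jurkat cells in KO they numbered 3 of 5 (17% called, 8.72% up) and 5 of 5 (78.5% called, 37.5% up). Each of these calls of the 5 genes was a rise, and most of all genes were called at 4 h of Jurkat cells.

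Tnf, the early inflammatory cytokine, responded to every treatment and at both times. Untreated WT libraries held 9.73, 11.5 and 10.2 CPM and untreated KO libraries 9.43, 9.43 and 9.10 CPM. After OVA for 30 min the values were 56.1, 55.2 and 51.1 CPM in WT and 38.8, 36.8 and 42.6 CPM in KO, and after 4 h 61.6, 60.9 and 48.5 and 40.1, 34.3 and 37.6 CPM. The rise with OVA was thus present at 30 min in all 6 libraries, and the levels at 4 h overlapped those at 30 min in both genotypes. In WT it came to 2.37 (SE 0.101, edgeR FDR 5.33e-16) and 2.44 (SE 0.101) on the log2 scale at 30 min and 4 h, and in KO to 2.06 and 2.003.

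Jurkat cells raised Tnf to 97.4, 102 and 87.8 CPM in WT and 133, 98.5 and 131 CPM in KO at 30 min. At 4 h the libraries held 1398, 1484 and 1427 CPM in WT and 1315, 1212 and 1259.6 CPM in KO. Both times lay above every OVA library, and the 30 min level was 6.65% of the 4 h level in WT and 9.58% in KO. The log2 rise of Tnf over untreated cells at 30 min was 3.19 for WT and 3.70 for KO, against 7.10 (SE 0.114, edgeR FDR 2.13e-28) and 7.08 (SE 0.115) at 4 h.

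Il6, the cytokine that signals through gp130 and STAT3, was the most strongly induced of the 5 genes on the log2 scale and in WT the least present beforehand. Untreated libraries held 0.267, 0.280 and 0.184 CPM in WT and 0.252, 0.622 and 0.501 CPM in KO. With Jurkat cells for 4 h they held 126, 162 and 139 CPM in WT and 122, 124 and 130.03 CPM in KO, far above every other group. The log2 rise was 9.18 in WT (SE 0.380, edgeR FDR 3.54e-19) and 8.09 in KO (SE 0.347). The fold rests on 9 to 30 counts per untreated library, and the 2 genotypes overlapped at 4 h.

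In the other groups Il6 stayed at or below 7.15 CPM. At 30 min OVA left Il6 at 0.291, 0.571 and 0.234 CPM in WT and 0.367, 0.481 and 0.579 CPM in KO, and neither was called. Jurkat cells at 30 min left WT at 0.569, 0.429 and 0.413 CPM, not called (log2 0.94, edgeR FDR 0.517; called in a fit of the 6 libraries alone, FDR 0.0372), while KO held 7.15, 0.899 and 1.71 CPM, a log2 rise of 2.81 (edgeR FDR 0.000466). Replicate 1 of that KO group carried most of the mean, and without it the rise was 1.495 (FDR 0.00611). OVA for 4 h brought WT to 1.35, 1.30 and 0.815 CPM (log2 2.21, edgeR FDR 0.0428), a call lost when any of 5 libraries was left out (WT OVA 4 h replicate 1 or 2, or any untreated WT replicate; FDR 0.0790 to 0.126). It held in 8 of the 14 alternatives run for it, over which the adjusted p ran from 0.000151 to 0.126. KO held 1.08, 0.385 and 0.561 CPM at 4 h of OVA and was not called (log2 0.63, 95% interval -0.93 to 2.19).

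Il10, which encodes the cytokine that restrains inflammatory responses, was the lowest of the 5 genes per length at 4 h of Jurkat cells and rose early. Untreated libraries held 0.134, 0.345 and 0.327 CPM in WT and 0.357, 0.124 and 0.1002 CPM in KO. Jurkat cells at 30 min raised WT libraries to 2.19, 1.90 and 2.85 CPM and KO libraries to 1.65, 1.46 and 1.65 CPM. By 4 h WT libraries held 8.32, 10.5 and 8.95 CPM and KO libraries 5.27, 6.67 and 5.56 CPM. At 30 min Il10 had reached 25.0% of its 4 h level in WT and 27.2% in KO, a larger share than that of the other 4 genes, which ran from 0.331% to 19.5%. This share includes the untreated level, so it does not rank how early the genes rose. The log2 rise of Tnf at 30 min was larger than that of Il10, at 3.19 in WT and 3.70 in KO. The log2 rise of Il10 at 30 min was 3.09 for WT and 3.03 for KO, against 5.08 (SE 0.251, edgeR FDR 2.58e-17) and 4.90 at 4 h.

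With OVA, Il10 was called in WT alone, which is not a test of a difference between genotypes. WT libraries held 0.873, 0.938 and 0.788 CPM at 30 min (log2 1.67, edgeR FDR 0.00129) and 0.342, 0.669 and 0.759 CPM at 4 h (log2 1.14, FDR 0.0188). The WT value at 4 h overlapped the untreated libraries, and its call was lost without WT OVA 4 h replicate 2 or 3 or without untreated WT replicate 1 (FDR 0.0651 to 0.124) and in a fit of the 6 libraries alone (FDR 0.0569). KO libraries held 0.346, 0.437 and 0.386 CPM at 30 min and 0.441, 0.289 and 0.195 CPM at 4 h, with log2 changes of 1.01 (95% interval 0.10 to 1.92) and 0.72 (-0.17 to 1.61) that were not called. In KO OVA 30 min replicate 3, the shallow library, the value rests on 4 counts.

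Il15 and Il15ra, the cytokine and the chain that presents it, had no called change from untreated cells after 30 min of either stimulus, while each of the other 3 genes had one in at least 1 genotype. For Il15 untreated libraries held 7.95, 7.96 and 7.84 CPM in WT and 5.82, 5.74 and 5.89 CPM in KO. With Jurkat cells for 30 min WT libraries were at 9.63, 8.45 and 7.36 CPM and KO libraries at 8.84, 5.65 and 6.10 CPM. By 4 h they had risen to 89.4, 118 and 97.6 CPM in WT and 59.4, 54.2 and 59.2 CPM in KO. The log2 rise at 4 h was 3.68 in WT (SE 0.108, edgeR FDR 9.35e-23) and 3.31 in KO (SE 0.112). OVA at 30 min left Il15 at 6.67, 5.77 and 7.09 CPM in WT and 4.30, 4.79 and 5.21 CPM in KO, below the untreated libraries without overlap in each genotype, at log2 -0.28 and -0.33, neither of them called (edgeR FDR 0.165 and 0.248). Of all genes, 24.6% did not overlap in that WT comparison and 22.2% in the KO one. Il15 rose with OVA by 4 h in WT, to 11.3, 12.1 and 10.8 CPM (log2 0.52, edgeR FDR 0.00144), and in KO it was at 7.15, 6.64 and 7.17 CPM (log2 0.27, FDR 0.213), called in a fit of the 6 libraries alone (FDR 0.0331).

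Il15ra stood at 10.1, 10.8 and 10.6 CPM in untreated WT libraries and 8.69, 8.77 and 8.28 CPM in untreated KO libraries. With Jurkat cells for 4 h it reached 62.4, 78.0 and 66.5 CPM in WT and 50.2, 45.8 and 47.1 CPM in KO. These rises of 2.71 (SE 0.0682) and 2.48 (SE 0.0699) on the log2 scale were the smallest among the 5 genes at that time. At 30 min of Jurkat cells its libraries held 9.63, 8.94 and 9.78 CPM in WT and 10.4, 8.55 and 9.03 CPM in KO. OVA at 4 h raised it to 13.6, 12.8 and 13.4 CPM in WT (log2 0.34, edgeR FDR 0.000967) and 10.6, 10.5 and 10.1 CPM in KO (log2 0.28, FDR 0.0163). The KO call was lost without KO OVA 4 h replicate 1 (FDR 0.0706) or KO untreated replicate 3 (FDR 0.0739).

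Scaling to total counts instead of TMM moved the median of all genes to -0.42 in WT and -0.37 in KO for 4 h of Jurkat cells, so directions there are relative to the scaling. The log2 rises of the 5 genes in WT then ran from 2.31 for Il15ra to 8.77 for Il6, and all 10 calls of both genotypes held in each of the 14 alternatives run for them. T-lineage markers were higher with Jurkat cells, as given above. How reads of the human cells were treated in counting is not given in the sources used here, and their part in these rises was not tested.

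**Figure D2:**
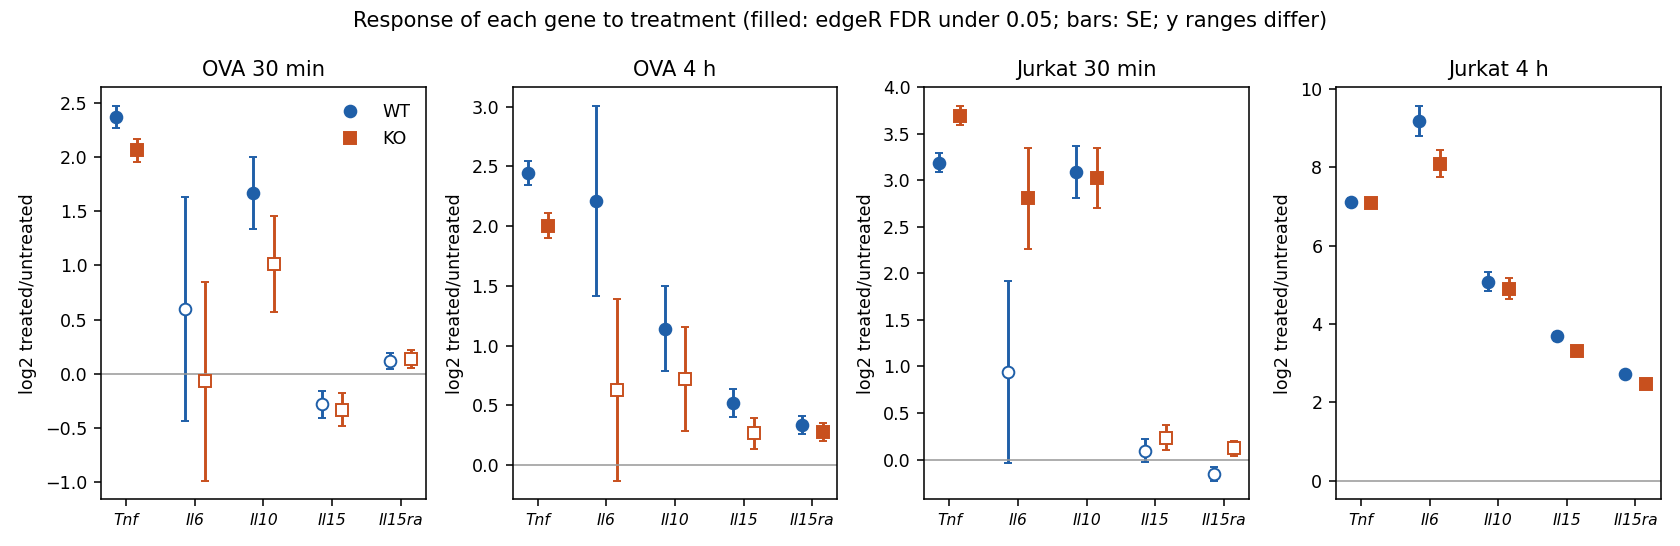
Log2 fold change of each gene against untreated cells, by treatment and time, in WT (circles) and KO (squares), with bars for the SE and filled symbols for an edgeR FDR under 0.05. Tnf is called in all 8 comparisons, Il15 and Il15ra in none at 30 min, and Il6 has the highest value and wide bars.

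Apoptotic cells and OVA were also compared directly at matched times. At 4 h all 5 genes were higher with Jurkat cells in WT (77.5% of all genes were called, 37.2% higher) and in KO (76.4% called, 36.3% higher), by log2 6.97 for Il6, 4.66 for Tnf, 3.94 for Il10, 3.16 for Il15 and 2.38 for Il15ra in WT. The OVA level was 0.810% of the Jurkat level for Il6, 3.97% for Tnf, 6.38% for Il10, 11.2% for Il15 and 19.3% for Il15ra in WT. At 30 min 4 of 5 genes were called in WT (24.3% of all genes called, 11.9% higher and 12.3% lower): Tnf (log2 0.82), Il10 (1.42) and Il15 (0.38) were higher with Jurkat cells and Il15ra (-0.27, edgeR FDR 0.00760) was lower. In KO 4 of 5 were called at 30 min (10.2% of all genes called, 5.3% higher), all higher with Jurkat cells: Tnf (1.63), Il10 (2.02), Il6 (2.88) and Il15 (0.57). Without KO Jurkat 30 min replicate 1 the Il6 value was 1.56 (FDR 0.0162) and Il15 was not called (0.34, FDR 0.136), and Il15 was also lost without KO OVA 30 min replicate 1 (FDR 0.0945). The Il15 call in WT was lost without WT Jurkat 30 min replicate 1 or 2 or WT OVA 30 min replicate 2 (FDR 0.0613 to 0.177). A fit of the compared libraries alone lost Il6 and Il15 in KO (FDR 0.0688 and 0.0885).

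KO and WT were compared within each condition, which addresses whether the libraries of the genotypes differed in these transcripts at rest and after each stimulus. Il15 and Il15ra were lower in KO in 4 of 5 conditions each, Tnf was lower with OVA at both times, and Il10 was lower with OVA at 30 min and Jurkat cells at 4 h. Tnf and Il6 were higher in KO at 30 min of Jurkat cells. In untreated cells 2 of 5 genes were called, both lower (9.97% of all genes were called and 3.97% were lower). With OVA 4 of 5 were lower at 30 min (12.4% called, 6.13% lower) and 3 of 5 at 4 h (12.6% called, 6.35% lower), and the 4 calls at 30 min held without the shallow KO library. With Jurkat cells 2 of 5 were higher at 30 min (9.25% called, 5.58% higher) and 3 of 5 lower at 4 h (22.9% called, 13.5% lower). Summed markers of plasmacytoid dendritic cells, basophils or mast cells and stroma differed between the genotypes in each condition, and those of monocytes or macrophages, neutrophils, B cells, T cells and conventional dendritic cells in some, as given above.

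For Il15, as for Il15ra, the KO mean was lower in all 5 conditions and the libraries of the genotypes were apart in 4. Of all genes, 24.8%, 28.7%, 33.2%, 26% and 36.5% had no overlap in untreated cells, OVA 30 min, OVA 4 h, Jurkat 30 min and Jurkat 4 h. The KO level of Il15 at 4 h of Jurkat cells was 56.6% of WT, at 57.6 ± 2.92 against 102 ± 14.7 CPM (SD, n = 3), a log2 difference of -0.82 (SE 0.0910, edgeR FDR 3.84e-07). With OVA for 4 h it was 61.3% of WT, at 6.98 ± 0.301 against 11.4 ± 0.680 CPM (log2 -0.70, FDR 0.000137). Both of these calls held in each of the 14 alternatives run. In untreated cells the KO level was 73.5% of WT (log2 -0.44, edgeR FDR 0.0244), and leaving out any 1 of the 6 libraries ended the call (FDR 0.0515 to 0.0735) with values of -0.45 to -0.43. With OVA for 30 min it was 73.2% of WT (log2 -0.49, FDR 0.0267), a call lost without KO replicate 1 or 2 or WT replicate 1 or 3 (FDR 0.0701 to 0.134). With Jurkat cells for 30 min it was not called (-0.30, FDR 0.137), but without KO replicate 1, whose 8.84 CPM lay above the other 2 libraries of its group, it was (-0.52, FDR 0.00431).

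Il15ra differed by less. Its KO level was 69.2% of WT at 4 h of Jurkat cells, at 47.7 ± 2.25 against 69.0 ± 8.11 CPM (SD, n = 3; log2 -0.53, SE 0.0607, edgeR FDR 6.04e-07). OVA for 4 h gave 78.2% of WT (log2 -0.35, FDR 0.00112), and both calls held in each of 14 alternatives. The untreated difference of -0.29 (FDR 0.0114) was lost without WT replicate 2 (FDR 0.0554), and that of -0.28 after 30 min of OVA (FDR 0.0214) without KO replicate 1 or WT replicate 2 (FDR 0.118 and 0.0602). After 30 min of Jurkat cells the genotypes overlapped (-0.02, 95% interval -0.18 to 0.13).

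Tnf was called lower in KO with OVA at both times and in no other condition. The KO level was 72.8% of WT at 30 min of OVA (log2 -0.47, SE 0.0941, edgeR FDR 0.00104) and 65.5% at 4 h (log2 -0.61, SE 0.0910, FDR 2.16e-05), and both calls held in each of 14 alternatives. In untreated cells the difference was not called (-0.17, 95% interval -0.40 to 0.06), although the libraries did not overlap. After 30 min of Jurkat cells the KO level was 126.5% of WT (log2 0.34, FDR 0.0123), with KO replicate 2 inside the WT range. That call was lost without KO replicate 1 or 3 or WT replicate 3 (FDR 0.0691 to 0.0891) and in a fit of the 6 libraries alone (FDR 0.0755). By 4 h of Jurkat cells the KO level was 87.8% of WT, without overlap and not called (-0.19, 95% interval -0.36 to -0.01, FDR 0.110), while a fit of the 6 libraries alone called it (-0.16, FDR 0.0310).

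Il10 had the lowest counts and the widest errors among the genes lower in KO. Its KO mean was lower in all 5 conditions, at 45.0% of WT after 30 min of OVA (log2 -1.15, SE 0.334, edgeR FDR 0.0224) and 63.0% at 4 h of Jurkat cells (log2 -0.66, SE 0.169, FDR 0.00486). The second call held in each of 14 alternatives. The first was lost without KO replicate 1 or 2 or WT replicate 2 (FDR 0.0747 to 0.105). For OVA at 4 h (52.2% of WT, log2 -0.90) edgeR made no call (FDR 0.0877), while DESeq2 did (adjusted p 0.0330), as did edgeR without WT OVA 4 h replicate 1 (FDR 0.0308). At 30 min of Jurkat cells every KO library lay below every WT library, with no call (-0.55, 95% interval -0.98 to -0.13).

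Il6 was higher in KO at 30 min of Jurkat cells, at 7.15, 0.899 and 1.71 CPM against 0.569, 0.429 and 0.413 CPM in WT. The 3 KO libraries lay above all WT libraries and ranged widely among themselves. The log2 difference was 2.78 (SE 0.541, edgeR FDR 0.00121), and 1.47 (FDR 0.00940) without KO replicate 1. In the other 4 conditions Il6 was not called, and at 4 h of Jurkat cells the difference was -0.18 (95% interval -0.56 to 0.21). In untreated and OVA-treated cells, with counts of 6 to 60 per library, intervals were as wide as -1.09 to 2.92 (untreated cells). A genotype difference of a few fold could therefore be missed there. In untreated cells the SE was 0.976 for Il6 and 0.449 for Il10, which had 5 to 17 counts per library. The spread of Il6 is estimated from all 30 libraries. KO Jurkat 30 min replicate 1 is among them, and its part in this width was not tested.

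**Figure D3:**
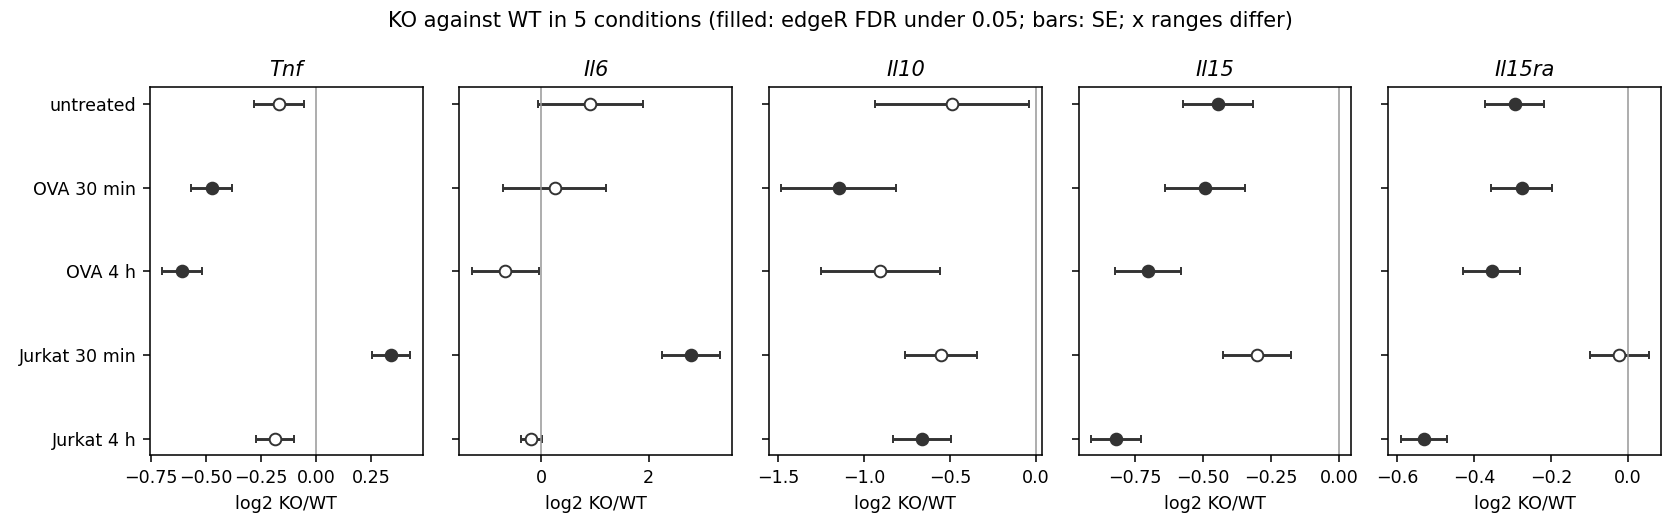
Log2 difference between KO and WT for each gene in 5 conditions, with bars for the SE and filled points for an edgeR FDR under 0.05. Il15 and Il15ra lie below 0 in every condition, Tnf crosses 0 between OVA and Jurkat cells at 30 min, and Il6 has its only filled point at Jurkat 30 min.

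Whether the response itself differed between KO and WT was tested as an interaction. edgeR called 0 of 5 genes in each of the 4 interactions, where 0%, 0.0405%, 0.00675% and 4.26% of all genes were called for OVA 30 min, OVA 4 h, Jurkat 30 min and Jurkat 4 h. At an unadjusted p under 0.05 the counts were 1, 1, 2 and 2, and DESeq2 called 0, 0, 1 and 0. Tnf at 30 min of Jurkat cells was the gene DESeq2 called, with a response larger in KO by 0.51 on the log2 scale (adjusted p 0.0473). In edgeR its value was 0.51 (SE 0.142, unadjusted p 0.00128, FDR 0.360), and it was called without KO Jurkat 30 min replicate 2 (0.64, FDR 0.00892). The Tnf response to OVA at 4 h was -0.44 in KO relative to WT (95% interval -0.73 to -0.14, FDR 0.436). For 4 h of Jurkat cells the interaction was -0.38 for Il15 (-0.70 to -0.05), -0.24 for Il15ra (-0.44 to -0.04) and -0.02 for Tnf (-0.31 to 0.27). The lower KO levels of Il15 and Il15ra were therefore not shown to depend on the stimulus.

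Genes that act with these cytokines were followed in 7 lists, some of which share genes such as Socs3, Stat3 and Jak1. Most of these genes rose in WT at 4 h of Jurkat cells. Of 11 genes of TNF release and receptor signalling 10 rose and 1 fell (median log2 1.30, against -0.02 for all genes, of which 79.5% were called and 38.9% rose). Tnfaip3, the A20 deubiquitinase that limits NF-kappaB signalling, rose by 4.25 to 1107 ± 67.8 CPM (SD, n = 3), and Tnfrsf1b, a TNF receptor, by 2.58. Of 12 transcription factors of these cytokine genes and their regulators 11 rose and 1 fell (median 1.62), among them Nfkbiz (4.68), a cofactor of NF-kappaB needed for Il6 transcription, Nfkbia (3.62), the NF-kappaB inhibitor, and Irf1 (2.14). All 10 genes of the IL-10 receptor list rose (median 1.28), led in size by Socs3 (4.54), a feedback inhibitor of STAT3 signalling, and Etv3 (3.48).

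Of 7 IL-6 receptor genes 4 rose and 2 fell in WT at 4 h of Jurkat cells (median 1.16), where again 79.5% of all genes were called. Il6ra, the ligand-binding IL-6 receptor chain, stood at 162 ± 6.10 CPM before and 27.1 ± 0.639 CPM after (SD, n = 3), a fall of log2 -2.58 with an edgeR FDR of 2.76e-28, while Il6 rose. Of 7 IL-15 receptor genes 6 rose (median 1.16), with Il2rg, the common gamma chain, at 1.89 and Il2ra at 4.95, while Il2rb, the beta chain shared by IL-2 and IL-15, was not called (log2 -0.39, edgeR FDR 0.154; named after its value was seen). Il2ra is also expressed by T cells, whose markers were higher with Jurkat cells. Among 11 genes of cytokine mRNA stability 8 rose and 3 fell (median 0.64). Zfp36 (2.35) and Zc3h12a (2.26), which encode proteins that promote decay of cytokine mRNAs, rose, and Zfp36l2 fell (-2.47). Of 12 related cytokines 8 passed the filter on low counts, and Lta, the neighbour of Tnf, rose from 0.156 ± 0.0254 to 24.7 ± 2.02 CPM, a log2 change of 7.27.

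Earlier and with OVA the calls were fewer. At 30 min of OVA in WT 10.7% of all genes were called and 5.51% rose. The genes that rose and fell there were 1 and 1 of 11 for TNF, 1 and 0 of 7 for IL-6 and 3 and 1 of 10 for IL-10. They were 0 and 1 of 7 for IL-15 and 3 and 1 of 12 for the transcription factors. For mRNA stability they were 2 and 1 of 11, and for related cytokines 1 and 1 of 8. At 30 min of OVA in WT Tnfaip3 (0.73), Nfkbia (0.65), Nfkbiz (0.78), Cebpb (1.37), Socs3 (0.86) and Zc3h12a (0.49) rose alongside Tnf. The same 6 genes rose at 30 min of Jurkat cells, by 0.77, 0.87, 0.87, 1.57, 1.35 and 0.56 in that order, as did Zfp36 (0.71), with the untreated libraries shared between the comparisons. There 28.7% of all genes were called and 14.2% rose. Of the TNF list 1 rose and 3 fell: Traf2 (-0.21), Ripk1 (-0.16) and Birc2 (-0.16). The genes that rose and fell were 1 and 2 of 7 for IL-6, 2 and 2 of 10 for IL-10 and 0 and 2 of 7 for IL-15. They were 4 and 0 of 12 for the transcription factors, 3 and 2 of 11 for mRNA stability and 2 and 0 of 8 for related cytokines. At 4 h of OVA 8 of 11 TNF genes rose and 1 fell (median 0.26; 23.5% of all genes called, 11.9% higher), with Tnfaip3 at 1.06 and Tnip1, its binding partner, at 0.85. Cebpb, a factor that acts on the Il6 promoter, rose by 1.25.

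Between genotypes the TNF list had the most calls at 4 h of OVA, where Tnf was lower in KO. Of its 11 genes 7 were lower and 0 higher there (median -0.19, against -0.0021 for all genes, of which 12.6% were called and 6.35% were lower), and 5 to 7 were called when single libraries were left out. Tnfaip3 (-0.51), Birc3 (-0.36), Tnip1 (-0.35) and Birc2 (-0.28) were lower in each of 14 alternatives. Nfkbia was lower by the same comparison (log2 -0.44, edgeR FDR 5.70e-07), as were Irf1 (-0.26), Zfp36 (-0.39), Zfp36l1 (-0.35), Etv3 (-0.41), Il10ra (-0.22), the ligand-binding IL-10 receptor chain, and Il2rg (-0.27), and each of these held in 14 of 14 alternatives. Higher in KO were Zfp36l2 (0.18, FDR 0.00827, 14 of 14), Cebpb (0.50, FDR 0.0118, lost without KO replicate 1 or WT replicate 3) and Jak3 (0.23, FDR 0.0179, lost without KO replicate 1 or 3 or WT replicate 1 or 2). By list, 1 gene was lower of 7 for IL-6, 3 lower of 10 for IL-10, 1 higher and 1 lower of 7 for IL-15, 1 higher and 4 lower of 12 for the transcription factors, 1 higher and 3 lower of 11 for mRNA stability, and 0 of 8 for the related cytokines.

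At 4 h of Jurkat cells 5 of 11 TNF genes were lower in KO and 0 higher (median -0.12; 22.9% of all genes called, 13.5% lower), a count that was 2 without KO replicate 2, 1 without WT replicate 2, 2 under scaling to total counts and 3 in a fit of the 6 libraries alone. Of the transcription factors 5 were lower and 1 higher, with Irf1 at -0.21, Irf5 at -0.20 and Atf3 at -0.32. Cebpb was higher in KO there (0.59, FDR 0.000886). The KO libraries held 15.1 ± 0.139 CPM of Lta (SD, n = 3) against 24.7 ± 2.02 CPM for WT. The log2 difference was -0.71 with an edgeR FDR of 0.000341, while Ltb, of the same gene cluster, was higher in KO (0.28). Lta is also expressed by T cells, the T-lineage markers were lower in KO at this time, as given above, and their part was not tested. Il10ra (-0.28) and Il2rg (-0.23) were lower and Jak3 (0.26), the kinase bound to Il2rg, was higher, in each of 14 alternatives.

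At rest and at 30 min of either stimulus Socs3 was higher in KO, at 23.5 ± 0.397 against 15.4 ± 1.21 CPM in untreated cells (SD, n = 3; log2 0.60, edgeR FDR 4.88e-05), by 0.50 with Jurkat cells, and by 0.39 with OVA (FDR 0.00341, lost without KO replicate 2). Irf1, a factor that acts on the Il15 promoter, was lower in untreated KO cells (-0.24, FDR 0.000961) and after 30 min of OVA (-0.27). Of the 12 transcription factors 2 were higher in untreated KO cells and 1 lower, where 9.97% of all genes were called and 3.97% were lower. The higher ones were Atf3 (0.27, FDR 0.0349) and Cebpb (0.50, FDR 0.0445), called in 10 and 8 of 14 alternatives. At 30 min of Jurkat cells, where Tnf and Il6 were higher in KO, Tnfaip3 was higher too (0.33, FDR 0.00123). It was the 1 higher gene of 11 in the TNF list, where 2 were lower, among them Rhbdf2 (-0.22, FDR 0.00270) and Tradd (-0.22, FDR 0.00395). Of all genes 9.25% were called and 5.58% were higher at 30 min of Jurkat cells. Nfkbiz was also higher there (0.35), but not without KO replicate 1 or in a fit of the 6 libraries alone. Among the partner genes the interaction at 4 h of Jurkat cells was called for Atf3 (-0.59, FDR 0.00336) in 20 of 20 alternatives, and for Il6ra, Socs3 and Hnrnpd in 15, 15 and 9 of 20. Of all genes 4.26% were called in that interaction. By list the calls were 2 of 7 for IL-6, 1 of 10 for IL-10, 1 of 12 for the transcription factors and 1 of 11 for mRNA stability. They were 0 in the TNF, IL-15 and related cytokine lists.

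**Figure D4:**
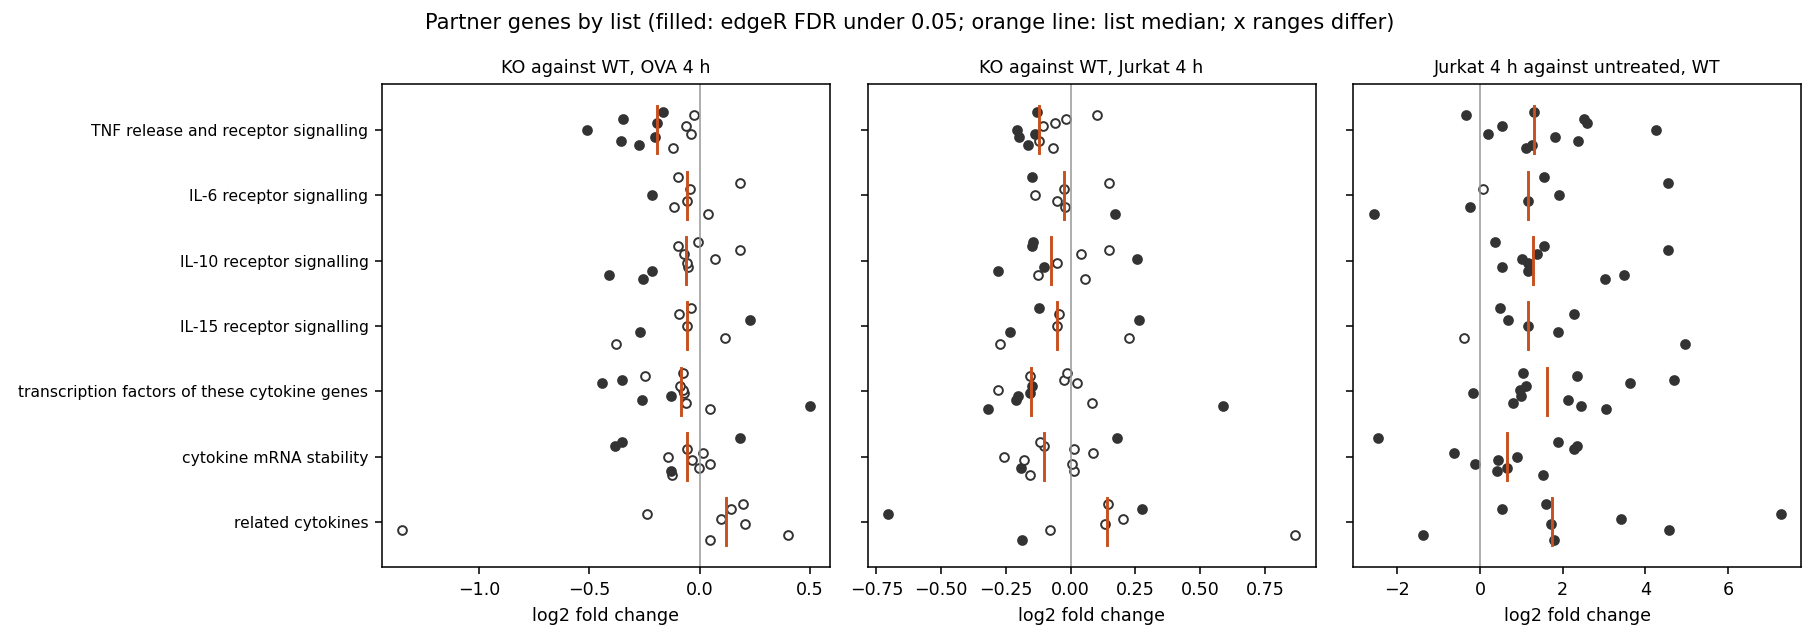
Log2 fold change of the partner genes by list, for KO against WT at 4 h of OVA and of Jurkat cells and for 4 h of Jurkat cells against untreated WT cells, with filled points for an edgeR FDR under 0.05 and a line at each list's median. The median of the TNF list is -0.19 in the first panel and most genes lie above 0 in the third.

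The genes whose pattern was most like each member were sought by Pearson correlation of log2 CPM over the 10 group means, among 10457 genes with at least 5 CPM in a group. For Tnf they were Cxcl1 (r = 0.989), a neutrophil-attracting chemokine, Hcar2 (0.986) and Pmpca (0.981), and for Il15ra Hivep1 (0.999), Sp110 (0.998) and Zc3h12c (0.998). For Il15 they were Met, Apol7c and Rab29 (0.997 each), for Il6 Prkcb (0.994), Slc44a1 (0.993) and Dtx4 (0.993), and for Il10 Eif5 (0.988), Pspc1 (0.985) and Ddx3x (0.984). Over the 30 libraries in place of the group means, Cxcl1 and Hivep1 stayed first for Tnf and Il15ra. The 3 genes of Il6 ranked 668, 503 and 1272 of 10457 there, and Ddx3x ranked 442 for Il10. Over the 8 groups without 4 h of Jurkat cells Cxcl1 ranked 4, and only Hivep1, at rank 3, stayed among the first 3. The order thus rests on the choice of points. Among the members themselves Il15 and Il15ra had an r of 0.987, and over the 8 groups without 4 h of Jurkat cells 0.702. Tnf and Il10 had an r of 0.960 over 10 groups and 0.889 over 8, while Il10 and Il15ra went from 0.809 to 0.034. These values describe group means that share libraries, and the 4 h Jurkat groups dominate those over 10 groups.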

How the data were processed

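RNA was sequenced from 30 libraries of mouse dendritic cell cultures (TruSeq RNA Library Prep Kit v2, per the labels' protocols). Read counts for each gene, as whole numbers with mm10 intervals, were deposited by the authors in 1 table, per the file headers. Per the submitters' processing notes, STAR 2.5, Subread, featureCounts 1.5.0-p1 and DESeq2 were used. The sources used here do not give the annotation, the strand setting or the treatment of human reads. Groups and replicate numbers came from the sample titles.

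Genes were kept with filterByExpr by group (14808 of 25611 rows, holding 99.99% of counts) and scaled with TMM. TMM factors ran from 0.765 to 0.842 in the 4 h Jurkat libraries and from 1.03 to 1.07 in the others. Differences were tested two-sided by edgeR's quasi-likelihood method (edgeR 4.0.16 under R 4.3.3), fitting group means to the 30 libraries together, with Benjamini-Hochberg adjustment over all genes tested in each of 21 contrasts. The SE is the size of the log2 fold change over the square root of F. Lengths per gene are joined GENCODE vM21 exons, used only to compare levels between genes. No 2 libraries of the same group agreed within sampling noise (chi-square per degree of freedom at least 2.28), and pairs from different groups were not compared. The steps were run on simulated counts in which most genes did not differ between groups. The scaling at 4 h of Jurkat cells, where most genes were called, was therefore not tested by it.

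The members and gene lists were chosen with earlier results of these data known. Rubcn and the 5 members are always named. Of each partner list up to 4 genes a contrast may be named, by smallest p, and 3 genes most like each member by correlation. Genes outside this rule are said to be so. Alternatives were DESeq2 size factors, total counts, no filter, a filter at 5 CPM in 3 or more libraries, a replicate block, a fit limited to the groups being compared, DESeq2 1.42.0 and leaving out each library. A fit without the 2 libraries that stood apart in depth or in Il6 was added after seeing the data.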

Additional observations from a re-analysis of the deposited data

How the results depend on the processing

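Of 1586 log2 fold changes of the 5 genes under the alternatives (4 more had no adjusted p), 1536 kept their side of the threshold, 41 lost a call and 9 gained one. The sign changed in 29 of them, in 12 comparisons of a gene that were not called in either fit (edgeR FDR 0.614 or more with all libraries), among them Il15 for Jurkat 30 min in WT, Il15ra for KO against WT at Jurkat 30 min and the interaction of Tnf at Jurkat 4 h. A fit of the compared groups alone called 1 of 5 genes in place of 2 for KO against WT at Jurkat 30 min, and 2 in place of 4 for Jurkat cells against OVA at 30 min in KO. DESeq2 called 1 in place of 0 for the interaction at Jurkat 30 min. When 1 library was left out, the calls for KO against WT numbered 0 to 1 (2 with all libraries) in untreated cells, with 0 without WT replicate 2, 1 to 4 (4) at OVA 30 min, with 1 without KO replicate 1, 3 to 4 (3) at OVA 4 h, 1 to 2 (2) at Jurkat 30 min and 3 in every case at Jurkat 4 h. For OVA 4 h against untreated cells they numbered 3 to 4 (5) in WT and 1 to 2 (2) in KO, and for the interaction at Jurkat 30 min 0 to 1 (0). Leaving out a library also leaves fewer samples for the spread. Same-numbered libraries did not deviate together (no comparison had all 3 correlations over 0.1), so the numbers were not taken as pairs, although for OVA 4 h and Jurkat 30 min against untreated WT cells, and Jurkat cells against OVA at 30 min in WT, all 3 libraries correlated best with their own number. A replicate block ended 1 call, that of Il6 for OVA 4 h in WT (2.21, edgeR FDR 0.0625), and left 4 genes called there. It changed no other call of the 5 genes. A fit without the 2 libraries that stood apart, chosen after seeing the data, ended the Tnf call for KO against WT at Jurkat 30 min (0.26, FDR 0.0769) and made one for Il15 (-0.52, FDR 0.00523). It also ended the Il15 call for Jurkat cells against OVA at 30 min in KO (0.37, FDR 0.147) and changed no call of Il6. Counts of 6 to 60 for Il6 outside the Jurkat groups, and of 4 to 24 for Il10 in the untreated and OVA-treated KO libraries, limit what could be called there. For Il6 the spread estimated from all 30 libraries, KO Jurkat 30 min replicate 1 among them, also enters these tests.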
